A study of Mus musculus with 12 samples.

Results

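CD41-positive (CD41pos) and CD41-negative (CD41neg) haematopoietic stem cells (HSCs) of control mice were compared across all genes. The comparison uses the 6 control libraries, 3 of each gate, of the 12 libraries in the series, chosen by the genotype and gate in their names. RNA of HSCs sorted by flow cytometry from mouse bone marrow was sequenced. The control mice (WT) were MxCre1-/-,RUNX1f/f: they carried floxed Runx1 alleles without the Cre recombinase, so Runx1 was not deleted by design. The other 6 libraries are labelled RUNX1 KO and came from MxCre1+/-,RUNX1f/f mice. They give values set beside those of the controls. They also entered the same fit, so the low-count filter and the estimate of spread behind the control p-values rest partly on them. Every mouse of both genotypes had received 4 poly(I:C) injections, which induce interferon, and was studied 4 weeks afterwards. MxCre1 is driven by an interferon-inducible promoter and is not limited to 1 cell type. The labels give no age of the mice, no antibody panel for the HSC gate and no statement that libraries came from separate animals, so the p-values measure the spread between these libraries.

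HSCs are the rare marrow cells that renew themselves and give rise to all blood lineages. CD41 is the product of Itga2b, an integrin alpha chain that pairs with integrin beta-3 to form the fibrinogen receptor of platelets. It is also found on some stem cells. Stem cells that carry CD41 or von Willebrand factor are known for a bias toward megakaryocytes, the large marrow cells that shed platelets and fill them with alpha granules and dense granules. RUNX1, GATA, FLI1 and other ETS factors are transcription factors of this lineage, whereas KLF1 drives the red cell lineage that shares a progenitor with it.

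The promoters of Itga2b and of 5 megakaryocyte genes with the largest fold changes are printed because these genes moved with the gate. Each sequence runs from 250 bases before to 50 bases after the annotated start, 5′ to 3′ on the gene's strand, from RefSeq on GRCm38.p6. The table held a promoter for 14095 of the 19395 genes tested (72.7%). They lie at chr11:102469834-102470133 (Itga2b, minus strand), chr7:110982412-110982711 (Mrvi1, minus), chr5:90772185-90772484 (Pf4, plus), chr16:18622354-18622653 (Gp1bb, minus), chr10:19851410-19851709 (Slc35d3, minus) and chr13:95696670-95696969 (F2rl2, plus). Capitals mark exact matches on either strand to AGATAA, a core bound by GATA factors, CGGAAG, bound by ETS factors, or TGTGGT, bound by RUNX factors.
Itga2b: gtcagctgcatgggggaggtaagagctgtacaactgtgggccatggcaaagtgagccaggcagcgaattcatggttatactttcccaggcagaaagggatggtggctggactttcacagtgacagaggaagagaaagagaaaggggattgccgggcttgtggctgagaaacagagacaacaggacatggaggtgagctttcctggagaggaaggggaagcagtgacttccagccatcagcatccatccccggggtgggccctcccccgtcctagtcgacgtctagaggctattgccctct
Mrvi1: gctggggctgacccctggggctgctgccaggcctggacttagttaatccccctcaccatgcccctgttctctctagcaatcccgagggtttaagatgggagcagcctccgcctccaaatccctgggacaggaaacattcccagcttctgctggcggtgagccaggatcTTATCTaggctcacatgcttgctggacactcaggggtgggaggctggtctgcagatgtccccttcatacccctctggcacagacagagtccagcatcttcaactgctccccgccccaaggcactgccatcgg
Pf4: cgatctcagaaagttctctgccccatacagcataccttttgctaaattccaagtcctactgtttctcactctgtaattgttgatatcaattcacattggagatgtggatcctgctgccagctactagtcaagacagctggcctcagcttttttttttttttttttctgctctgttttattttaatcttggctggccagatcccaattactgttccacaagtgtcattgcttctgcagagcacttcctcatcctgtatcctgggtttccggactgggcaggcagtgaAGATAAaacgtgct
Gp1bb: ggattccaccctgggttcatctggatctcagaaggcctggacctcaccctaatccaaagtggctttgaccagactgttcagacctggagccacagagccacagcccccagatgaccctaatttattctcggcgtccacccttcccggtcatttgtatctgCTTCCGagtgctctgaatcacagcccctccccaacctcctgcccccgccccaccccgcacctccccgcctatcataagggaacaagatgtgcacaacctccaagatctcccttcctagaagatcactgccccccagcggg
Slc35d3: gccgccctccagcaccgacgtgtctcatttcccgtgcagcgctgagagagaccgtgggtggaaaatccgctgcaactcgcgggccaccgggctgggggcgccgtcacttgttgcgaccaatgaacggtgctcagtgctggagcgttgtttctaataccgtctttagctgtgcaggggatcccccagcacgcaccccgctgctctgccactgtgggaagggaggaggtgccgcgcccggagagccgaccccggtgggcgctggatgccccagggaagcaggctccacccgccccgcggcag
F2rl2: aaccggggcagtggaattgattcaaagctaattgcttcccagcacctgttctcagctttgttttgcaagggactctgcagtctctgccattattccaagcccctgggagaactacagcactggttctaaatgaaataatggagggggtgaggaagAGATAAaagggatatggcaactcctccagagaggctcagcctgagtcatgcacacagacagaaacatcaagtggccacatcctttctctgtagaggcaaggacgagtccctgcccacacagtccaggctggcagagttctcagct
AGATAA or its reverse complement was found in Mrvi1 (first base at -82 from the annotated start), Pf4 (at 36) and F2rl2 (at -95), and the CGGAAG motif in Gp1bb (at -90). No match to the 3 motifs was found in these windows of Itga2b and Slc35d3, nor in those of the lower genes Ushbp1, Gpm6a and Irf4. AGATAA was found in 7.79% of the promoters of tested genes, 7.88% of those of genes called higher in CD41pos and 8.5% of those called lower. TGTGGT was found in 13.7%, 13.1% and 13.9% of them, in the same order. CGGAAG was found in 26.8% of tested, 16.7% of higher and 28.6% of lower promoters. Over all promoters of the table the shares were 11.2% for AGATAA, 16.8% for TGTGGT and 16.9% for CGGAAG. These are descriptions of letters in a window, not of binding.

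The 6 WT libraries held 44108035 to 56935860 counts assigned to genes, and 21973 to 24873 genes were detected in each. Libraries are named by gate and label number, CD41pos 1, 3 and 4 and CD41neg 2, 3 and 4, and values are listed in that order throughout. CD41pos 3 and CD41neg 3 stood apart from the other 4. Their 27 immediate early and stress genes summed to 10014 and 9608 CPM (counts scaled to library size by TMM, the trimmed mean of M-values), against 3788 to 4187 CPM elsewhere. The 81 ribosomal protein genes summed to 44606 CPM in CD41pos 3 and 34688 CPM in CD41neg 4, against 23985 to 25588 CPM in the rest. Y-linked genes differed between libraries. Ddx3y was at 0.0355 CPM in CD41pos 1 and listed at 0 in CD41neg 4, against 11.2 to 38.9 CPM in the rest. The libraries labelled 4 thus differed from each other, with 22.5 CPM in CD41pos 4. All 6 libraries held Xist (113 to 339 CPM). Each of these features occurred in libraries of both gates, and counts without single libraries are given beside the results.

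Between the gates, 1084 of 19395 genes tested differed (5.59%; edgeR's quasi-likelihood test, Benjamini-Hochberg adjusted p under 0.05). Of these 528 were higher in CD41pos (2.72% of genes tested) and 556 were lower (2.87%). An unadjusted p under 0.05 in edgeR, also given for some lists below, was reached by 4199 of the 19395 genes. The highest fold changes included genes of megakaryocytes and platelets, among them Mrvi1, Pf4 and Gp1bb. List counts given below are edgeR's unless DESeq2, the alternative test (2428 genes called), is named. Of 163 different genes in 6 megakaryocyte lists, 54 were higher, the gated Itga2b among them, and 4 lower (35.6% called). Of 29 red cell genes 17 were lower, and of 27 genes of granulocyte and monocyte progenitors 10 were higher. A change of at least 1 on the log2 scale was estimated for 318 of the higher and 264 of the lower genes. Levels of the 3 CD41pos libraries lay all above or all below those of CD41neg for 4427 genes (22.8% of those tested), including 1076 of the 1084 called. The number of calls rested on the libraries used. It fell to 460 without CD41neg 4 and to 609 without CD41neg 2, and was 1254 without CD41pos 3 and CD41neg 3. With only the WT libraries in the fit, and so without the spread of those labelled KO, it was 190. These are bulk samples, in which more cells of a kind and more RNA per cell cannot be told apart.

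**Figure D1:**
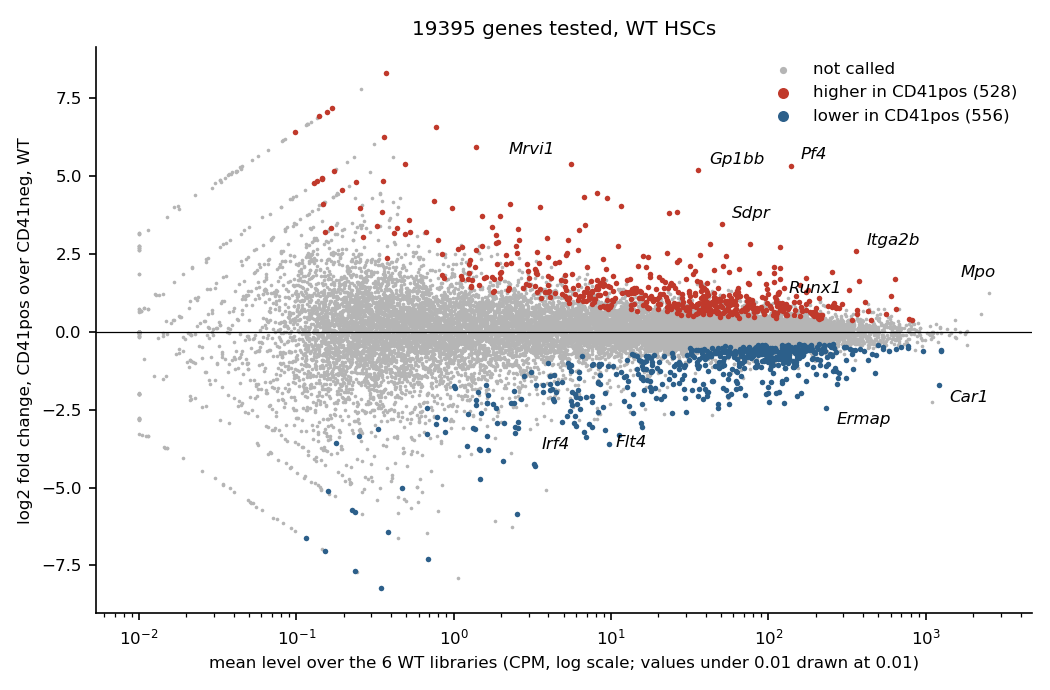
Each point is 1 of the 19395 genes tested, with its mean level over the 6 WT libraries (CPM, log axis) and its log2 fold change, CD41pos over CD41neg. Red points (528) were called higher and blue points (556) lower; Pf4, Gp1bb and Mrvi1 lie at the top and Itga2b stands out among abundant genes.

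Calls were spread unevenly over expression levels and kinds of gene. Among genes averaging under 1 CPM, 1.11% were called, against 5.7% from 1 to 10 CPM, 7.06% from 10 to 100 CPM and 9.52% at 100 CPM or more. Of 15048 protein-coding genes, 461 were higher and 513 lower (6.47% called). Of 2631 long non-coding RNAs, 41 were higher and 28 lower (2.62%).

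The gated antigen followed the labels. Itga2b, on the minus strand of chromosome 11, stood at 628, 551 and 683 CPM in CD41pos and at 122, 138 and 49.6 CPM in CD41neg. Every CD41pos library lay far above every CD41neg library, yet CD41neg cells were not without the transcript. The fold change was 6.02 (log2 2.59 ± 0.29 SE, adjusted p = 0.000906), a check of the sort rather than a finding. Runx1, the floxed transcription factor that is intact in these mice, was at 159, 141 and 147 CPM in CD41pos and 84, 90.5 and 65.7 CPM in CD41neg. It was 1.86-fold higher in CD41pos (log2 0.90 ± 0.15 SE, adjusted p = 0.00589), with no overlap between the gates. In the libraries labelled RUNX1 KO, Runx1 stood at 270, 382 and 325 CPM in CD41pos and 171, 157 and 163 CPM in CD41neg, above every WT library of the same gate. The targeted gene thus did not fall in the libraries that carry the KO label. These counts cover the whole gene, the labels do not state which part is floxed, and the deletion is therefore not checked by them.

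Stem cell markers were present in both gates. Hlf, a transcription factor of stem cells, was at 109, 74.4 and 131 CPM in CD41pos and 161, 140 and 102 CPM in CD41neg (adjusted p = 0.637). Mecom, another stem cell regulator, gave 74.8, 23.5 and 84.8 CPM against 101, 47.7 and 46.5 CPM (adjusted p = 0.948). Procr, the surface receptor EPCR, gave 35.2, 18.1 and 41.3 CPM against 69, 51.6 and 58.5 CPM, lower in each CD41pos library although the fit did not call it (adjusted p = 0.346). These marker genes of the label were chosen by name and after their values were seen. CD41 thus followed the label, and transcripts of Hlf, Mecom and Procr were found in both gates. Genes of committed progenitors were more abundant than these. Mpo, of granulocyte and monocyte progenitors, averaged 3566 CPM in CD41pos and 1514 CPM in CD41neg. Car1, of the red cell lineage, averaged 564 and 1864 CPM. The share of HSCs among the sorted cells was not tested.

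Of 23 surface receptors of megakaryocytes and platelets, edgeR called 10 higher in CD41pos and none lower, and DESeq2 11 higher and 1 lower; the median log2 fold change was 0.87, against 0.01 over all genes. Their summed level ran from 2276 to 2734 CPM in CD41pos and from 957 to 1290 CPM in CD41neg. Itga2b, the gated antigen, is 1 of the 10 and follows from the sort. It averaged 621 CPM of these sums in CD41pos and 103 CPM in CD41neg. Gp1bb, the beta chain of the glycoprotein Ib complex that binds von Willebrand factor, stood at 60.9, 98.6 and 50.2 CPM against 2.63, 2.25 and 0.868 CPM. That is a 36.4-fold difference with wide separation of the gates (log2 5.19 ± 0.43 SE, adjusted p = 0.000132). Exons of Gp1bb overlap those of Sept5 on the same strand, and Sept5 itself was at 1.79, 4.59 and 2.35 CPM against 0.974, 1.09 and 0.91 CPM. The other chains of the complex differed less. Gp9 gave 85.4, 88.3 and 75.6 CPM against 21.6, 17.1 and 19.1 CPM (log2 2.11 ± 0.15 SE, adjusted p = 3.94e-05), and Gp1ba 35, 18.2 and 32.9 CPM against 13, 9.04 and 15 CPM (log2 1.22 ± 0.25 SE, adjusted p = 0.016). Gp5 gave 188, 202 and 182 CPM against 97.3, 82.3 and 118 CPM (log2 0.94 ± 0.16 SE, adjusted p = 0.00637). All 4 genes passed, and none overlapped between the gates. Itgb3, the integrin partner of CD41, was at 92, 41 and 89.3 CPM against 18.1, 6.43 and 7.03 CPM (log2 2.81 ± 0.43 SE, adjusted p = 0.00394). Treml1, a receptor stored in platelet granules, was 14-fold higher, at 36.1, 59.9 and 35.1 CPM against 3.98, 3.25 and 2.11 CPM. The tetraspanin Cd9 was 3.33-fold higher (adjusted p = 0.000399). Gp6, the collagen receptor of mature platelets, averaged 0.137 CPM in CD41pos and 0.232 CPM in CD41neg. Gp1ba, Gp5, Sept5 and Gp6 were chosen after their values were seen.

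**Figure D2:**
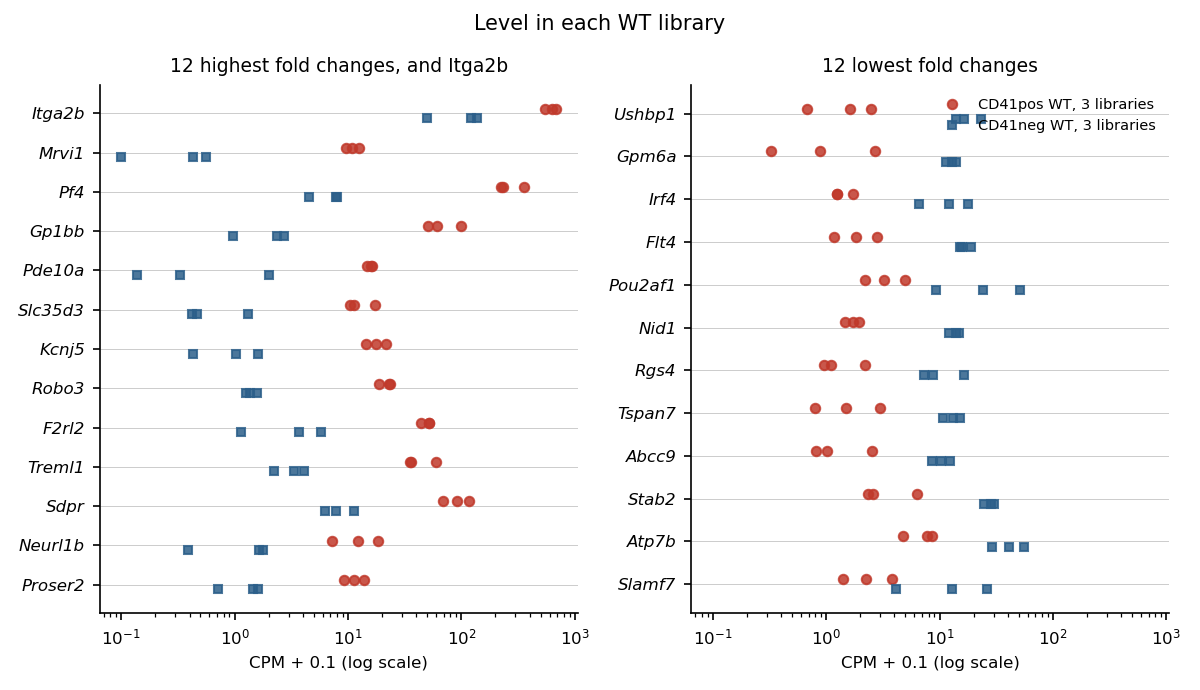
Each row is a gene and each point its level in 1 WT library (CPM plus 0.1, log axis), red circles for the 3 CD41pos and blue squares for the 3 CD41neg libraries. Itga2b and the 12 highest (left) and 12 lowest (right) fold changes are shown, and the gates do not overlap for any of them, which the rule for choosing the ranked genes required.

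Of 24 tested genes of granule cargo, 9 were higher and 1 lower (11 and 1 with DESeq2), with a median log2 fold change of 0.84. The count was 5 without CD41pos 1, without CD41neg 3 or without CD41neg 4. Pf4, the platelet factor chemokine of alpha granules, stood at 222, 357 and 232 CPM in CD41pos and 7.8, 7.88 and 4.47 CPM in CD41neg. It was 40.2-fold higher (log2 5.33 ± 0.48 SE, adjusted p = 0.000178). The lack of overlap between the gates was required by the rule for ranked genes. Per length, Pf4 averaged 1320 TPM, a level that allows for transcript length, in CD41pos and 35.9 TPM in CD41neg, while Itga2b averaged 540 and 94.9 TPM. Vwf, von Willebrand factor, which was chosen after its values were seen, was at 262, 93.4 and 215 CPM against 41.8, 17.6 and 78 CPM. Its gates stayed apart, with CD41pos 3 close to CD41neg 4, and the difference passed (log2 2.05 ± 0.49 SE, adjusted p = 0.0302). Clu, the secreted chaperone clusterin, was 4.75-fold higher at 44.4, 40.4 and 45.5 CPM against 8.03, 11.1 and 8.31 CPM. Serpine2, a thrombin inhibitor, was 3.99-fold higher (adjusted p = 0.0107). Srgn, the granule proteoglycan serglycin, was 1.59-fold higher and abundant in both gates, at 479 to 603 CPM against 312 to 338 CPM. Aplp2, a relative of the amyloid precursor, was the only cargo gene that edgeR called lower, at 194, 98.7 and 178 CPM against 406, 337 and 391 CPM (log2 -1.27 ± 0.21 SE, adjusted p = 0.00612). Lgals3bp, also abundant, did not differ detectably (log2 0.01 ± 0.15 SE).

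Among 23 genes of granule assembly and secretion, edgeR called 5 higher and none lower and DESeq2 8 higher and none lower, and the median log2 fold change was 0.16. Slc35d3, a transporter-family protein needed for dense granules, stood at 11.1, 17.1 and 10.3 CPM against 0.37, 0.318 and 1.22 CPM (log2 4.33 ± 0.48 SE, adjusted p = 0.000758). Sdpr, now called Cavin2, encodes a coat protein of caveolae and stood at 92.1, 69.2 and 116 CPM against 11.2, 7.74 and 6.12 CPM (log2 3.47 ± 0.25 SE, adjusted p = 3.94e-05). These are 20.1-fold and 11-fold differences, without overlap between the gates, which the rule for ranked genes required. Rab27b, a GTPase of granule secretion, was 5.56-fold higher (adjusted p = 0.00014). Plek, the protein kinase C substrate pleckstrin, was 7.07-fold higher at 145, 69 and 187 CPM against 26.9, 20.8 and 9.08 CPM. Rab32, a GTPase of lysosome-related organelles, was 1.85-fold higher (log2 0.89 ± 0.16 SE). Vamp8, a SNARE protein of platelet secretion, had a log2 change of 0.57 ± 0.17 (SE) and did not pass (adjusted p = 0.0788).

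Receptors for platelet agonists and their signalling proteins held the most calls of the megakaryocyte lists. Of 34 tested, edgeR called 17 higher and none lower and DESeq2 22 higher and 1 lower, with a median log2 fold change of 0.98. Without CD41neg 4 the count was 10. Mrvi1, a partner of the inositol trisphosphate receptor in cGMP signalling, stood at 9.51, 10.8 and 12.4 CPM against 0.331 and 0.454 CPM and was listed at 0 in CD41neg 4. It had the highest fold change of the ranked genes (41.5-fold, log2 5.38 ± 0.69 SE, adjusted p = 0.0015). Per length its level was low, with a mean of 0.733 TPM in CD41pos and a mean listed at 0 in CD41neg. Reads of an antisense gene, Gm16336, which averaged far less, cannot be told apart from it by strand. F2rl2, the thrombin receptor family member PAR3, was at 51.7, 44.2 and 51.6 CPM against 5.63, 3.61 and 1.03 CPM (log2 3.84 ± 0.46 SE, adjusted p = 0.00113). F2r, the thrombin receptor PAR1, gave 332, 162 and 354 CPM against 160, 163 and 114 CPM, overlapped between the gates and did not pass (log2 0.96 ± 0.28 SE, adjusted p = 0.0705). Rap1b, the GTPase that activates platelet integrins, was 2.55-fold higher at 468, 422 and 518 CPM against 190, 194 and 169 CPM (adjusted p = 0.000164). Rasgrp2, its exchange factor, was 2.87-fold higher (adjusted p = 0.00307). Gnaz, a G protein alpha subunit, was 3.36-fold higher (adjusted p = 0.00412). Among the other members, chosen here after their values were seen, P2ry12, the ADP receptor, had a log2 change of 3.39, and Tbxa2r, the thromboxane receptor, of 1.84. Tln1, the integrin activator talin, was at nearly the same level in both gates (log2 0.13 ± 0.17 SE).

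Cytoskeletal genes of platelet formation were mixed. Of 28 tested, 6 were higher and 2 lower, with a median log2 fold change of 0.42; the count of higher genes was 2 without CD41neg 2 and 3 without CD41pos 1, CD41neg 3 or CD41neg 4. Tuba8, an alpha-tubulin, was at 185, 248 and 181 CPM against 35.3, 42.2 and 16.4 CPM (log2 2.71 ± 0.33 SE, adjusted p = 0.00126). Zyx, the focal adhesion protein zyxin, was 1.84-fold higher (adjusted p = 0.0062). Sptb, the beta-spectrin of red cells, was lower at 10.3, 5.72 and 9.06 CPM against 20.6, 19.2 and 29.3 CPM (log2 -1.46 ± 0.25 SE, adjusted p = 0.00643). Tubb1, the beta-tubulin of mature platelets, chosen after its values were seen, averaged 4.09 CPM against 1.6 CPM and did not pass (adjusted p = 0.159).

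Of 31 transcription factors of the megakaryocyte and red cell lineages, edgeR called 7 higher and 1 lower and DESeq2 9 higher and 2 lower, with a median log2 fold change of 0.21. With edgeR, 4 were higher without CD41neg 4 and 2 were lower without CD41pos 3. Mef2c was 2.51-fold higher at 234, 251 and 279 CPM against 108, 103 and 92.8 CPM (log2 1.33 ± 0.12 SE, adjusted p = 0.000178). Fli1, the ETS factor of megakaryocytes, which was chosen after its values were seen, was 2.23-fold higher at 218, 155 and 251 CPM against 107, 103 and 69.2 CPM (adjusted p = 0.0132). Klf1, the master factor of red cell genes, was the one called lower by edgeR over all libraries, at 140, 239 and 115 CPM against 393, 380 and 606 CPM (log2 -1.48 ± 0.28 SE, adjusted p = 0.0118). Fli1 and Klf1 thus lay on opposite sides, and neither overlapped between the gates. Cited2, a coactivator partner, was 1.99-fold higher (adjusted p = 0.0118) but lost its call without CD41neg 4 (adjusted p = 0.0533). Gata1 gave 198, 264 and 192 CPM against 286, 268 and 411 CPM and did not pass (log2 -0.56 ± 0.20 SE, adjusted p = 0.114). Gata2 gave 709, 680 and 632 CPM against 529, 563 and 418 CPM and did not pass either (log2 0.42 ± 0.13 SE, adjusted p = 0.0744).

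**Figure D3:**
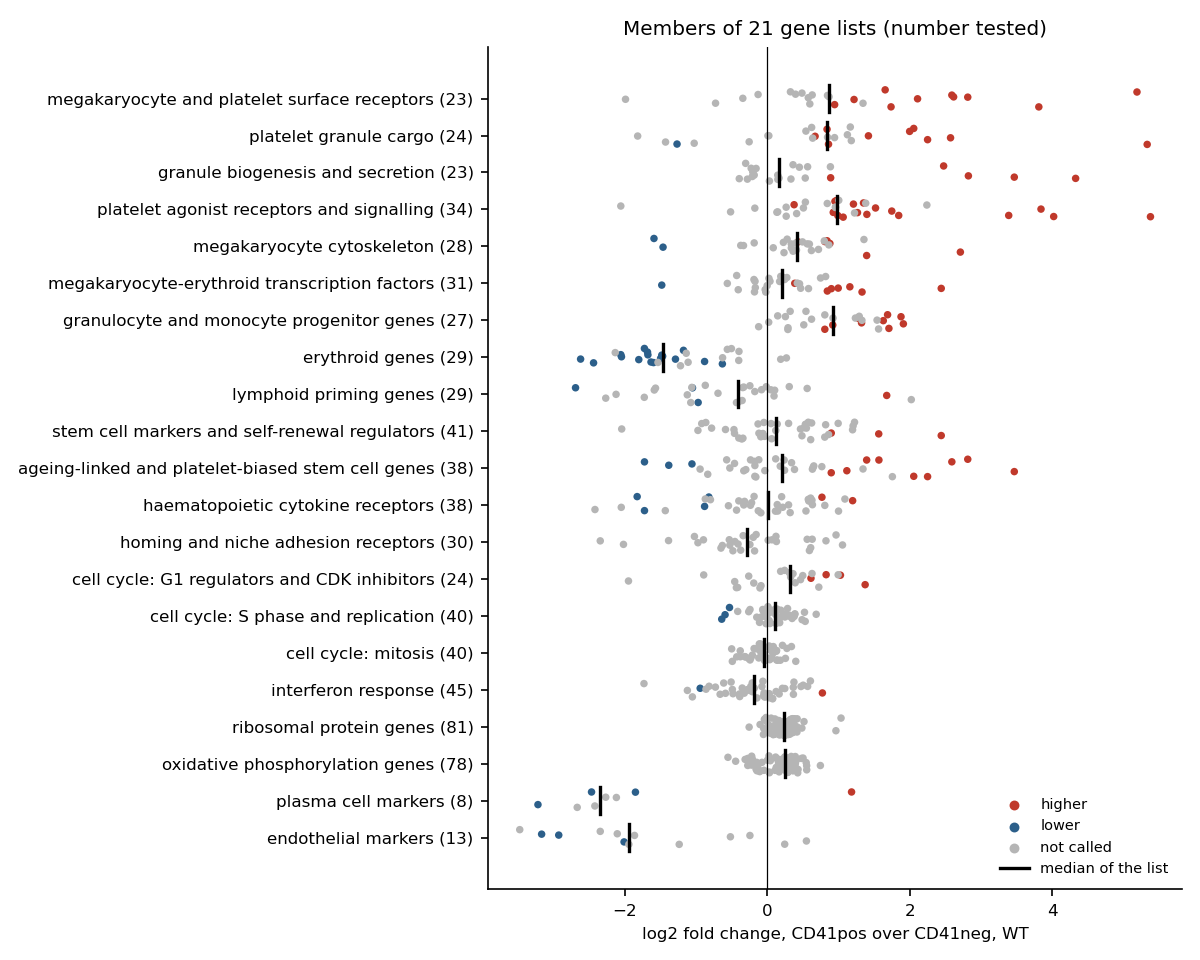
Each row is a gene list, with the number of genes tested in brackets, and each point the log2 fold change of 1 member, CD41pos over CD41neg, in WT (red, called higher; blue, called lower; grey, not called; black bar, median). Calls are edgeR's: 17 of the 29 red cell genes are blue and none red, with a median of -1.47, and 10 of the 27 granulocyte and monocyte genes are red and none blue, with a median of 0.92.

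Of 29 genes of the red cell lineage, edgeR called 17 lower in CD41pos and none higher and DESeq2 19 lower and none higher, with a median log2 fold change of -1.47. Their summed level was 2957, 4190 and 3065 CPM in CD41pos and 6708, 7273 and 8642 CPM in CD41neg, without overlap. Ermap, an erythroid membrane protein, was at 87.7, 63.3 and 67.1 CPM against 409, 327 and 445 CPM (log2 -2.44 ± 0.27 SE, adjusted p = 0.000872). Rhag, the ammonium channel of the Rh complex, was at 34.3, 28.4 and 25.7 CPM against 85.9, 98.2 and 124 CPM (log2 -1.80 ± 0.21 SE, adjusted p = 0.00113). Both were lower in every CD41pos library. Ank1, the ankyrin of the red cell skeleton, had a log2 change of -2.06, and Tfrc, the transferrin receptor, of -1.63. Car1, a carbonic anhydrase, was at 573, 640 and 480 CPM against 1649, 1616 and 2327 CPM (log2 -1.72 ± 0.23 SE, adjusted p = 0.00198). Car1 remained among the abundant transcripts of CD41pos cells, at 442 TPM against 1530 TPM. Hba-a1, an alpha-globin gene with a near-identical copy, overlapped between the gates, at 29.9, 292 and 137 CPM against 164, 366 and 75.4 CPM (adjusted p = 0.768); it was chosen after its values were seen. The count of lower genes ranged from 12 to 18 when any 1 WT library was left out.

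Of 27 genes of granulocyte and monocyte progenitors, edgeR called 10 higher in CD41pos and none lower, and 17 did not pass. DESeq2 called 16 higher and none lower. The list had a median log2 fold change of 0.92. Their sum was 8401, 7102 and 7368 CPM in CD41pos and 3938, 2736 and 3122 CPM in CD41neg. Ctsg, the granule protease cathepsin G, was at 422, 419 and 354 CPM against 129, 72 and 118 CPM (log2 1.91 ± 0.33 SE, adjusted p = 0.0081). Prtn3, proteinase 3, was 3.09-fold higher at 562, 639 and 497 CPM against 220, 144 and 185 CPM (adjusted p = 0.00871). Ms4a3, a membrane protein of granulocyte and monocyte progenitors, was 3.67-fold higher (adjusted p = 0.00895). The 3 genes shared the pattern of all CD41pos libraries above all CD41neg libraries. Mpo, myeloperoxidase and the most abundant of the list, was at 4211, 2789 and 3699 CPM against 1927, 1084 and 1531 CPM, without overlap, and did not pass (log2 1.24 ± 0.35 SE, adjusted p = 0.0575). Lyz2, lysozyme of maturer myeloid cells, did not pass (log2 0.51 ± 0.31 SE, adjusted p = 0.363). The count was 5 without CD41pos 1 or CD41neg 3 and 4 without CD41neg 4. Of 11 markers of mature neutrophils, neither edgeR nor DESeq2 called any over all libraries (0 in edgeR at an unadjusted p under 0.05), and edgeR called 2 lower without CD41pos 4. They had sums of 28.4, 94.7 and 320 CPM against 352, 536 and 108 CPM. Markers of basophils and mast cells gave 961 to 1320 CPM in CD41pos and 682 to 1059 CPM in CD41neg, with 1 of 10 called. That gene was Hdc, histidine decarboxylase (log2 1.56 ± 0.30 SE, adjusted p = 0.0129), which lost its call without CD41neg 4 (adjusted p = 0.053).

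**Figure D4:**
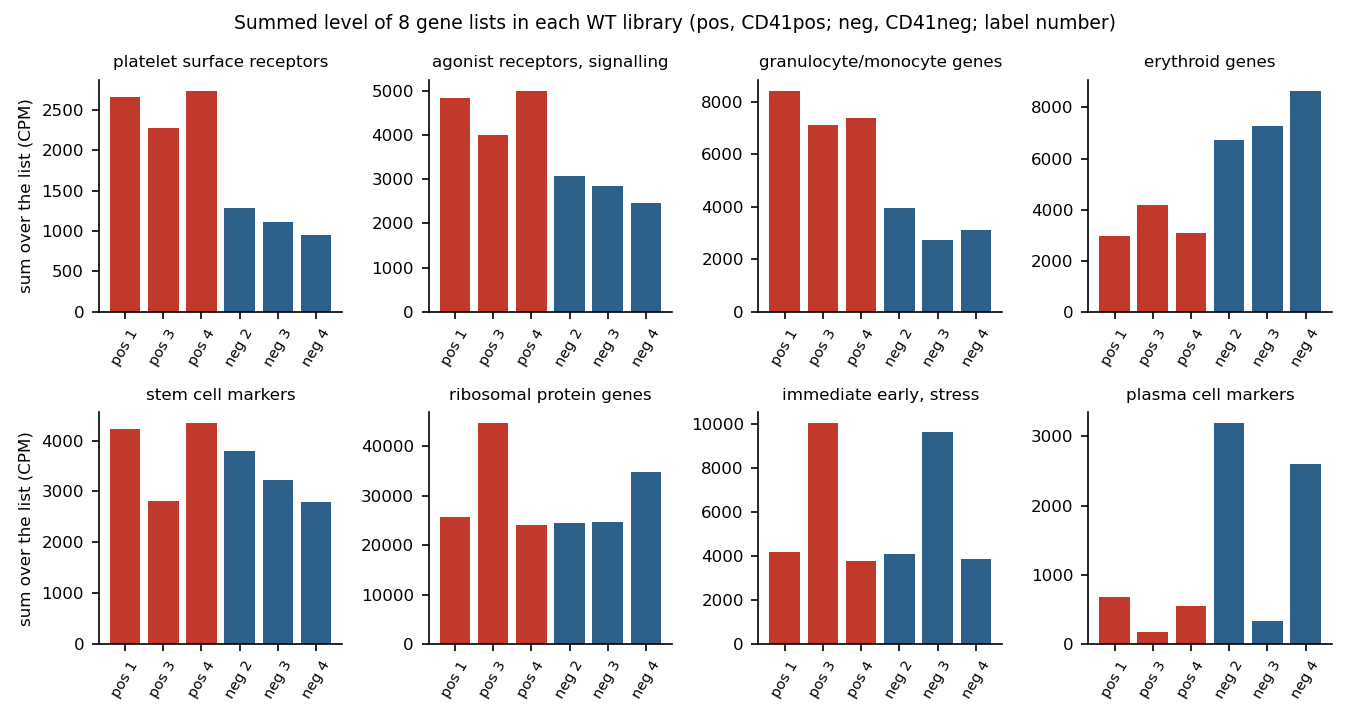
Bars give the summed level (CPM, from 0) of 8 gene lists in each of the 6 WT libraries, CD41pos in red and CD41neg in blue. The red cell and the granulocyte and monocyte sums separate the gates in opposite directions, while immediate early and ribosomal sums are high in 1 library of each gate (10014 CPM in CD41pos 3 and 9608 CPM in CD41neg 3 for the first) and plasma cell sums in CD41neg 2 and CD41neg 4.

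Of 29 genes of lymphoid priming, edgeR called 1 higher and 3 lower and DESeq2 1 higher and 6 lower, with a median log2 fold change of -0.41. Ikzf1, the lymphoid factor Ikaros, was at 116, 78.1 and 111 CPM against 210, 180 and 209 CPM (log2 -0.97 ± 0.16 SE, adjusted p = 0.00535). Hdac7, a histone deacetylase of lymphocytes, was at 126, 112 and 108 CPM against 224, 218 and 275 CPM (log2 -1.05 ± 0.16 SE, adjusted p = 0.00336). Both were lower in every CD41pos library. Blnk, an adaptor of B cell receptor signalling, was 6.46-fold lower, at 0.568 to 1.88 CPM against 4.93 to 14.1 CPM. Il12a, a cytokine subunit, was 3.19-fold higher (adjusted p = 0.00214).

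Plasma cell markers were high in CD41neg 2 and CD41neg 4. The 8 plasma cell markers summed to 677, 175 and 545 CPM in CD41pos and to 3189, 329 and 2598 CPM in CD41neg, so that CD41neg 3 lay within the range of CD41pos. Jchain, the joining chain of secreted antibodies, stood at 581, 79.3 and 471 CPM against 2822, 276 and 2346 CPM and did not pass (adjusted p = 0.138). The 11 B cell markers summed to 82.7, 91.6 and 80.7 CPM in CD41pos and 182, 107 and 115 CPM in CD41neg, without overlap, and edgeR called 1 of them lower and DESeq2 3. Of the 8 plasma cell markers, edgeR called 3 lower and 1 higher and DESeq2 7 lower and 1 higher. With edgeR the lower count was 6 without CD41neg 3 but 1 without any other WT library. Irf4, a factor of activated lymphocytes and plasma cells, was lower, at 1.61, 1.14 and 1.14 CPM against 17.7, 6.54 and 12.1 CPM (log2 -3.22 ± 0.44 SE, adjusted p = 0.00203). Pou2af1, a coactivator of B cells, was at 4.82, 3.16 and 2.12 CPM against 51.3, 9.29 and 24.1 CPM (log2 -3.07 ± 0.65 SE, adjusted p = 0.0195) and lost its call without CD41neg 2 (adjusted p = 0.0655) or CD41pos 4 (adjusted p = 0.059). Slamf7, a surface receptor of plasma and natural killer cells, had a log2 change of -2.57 and lost its call in 5 of 6 fits that left out 1 library (adjusted p up to 0.165). Cd79a, the B cell receptor chain, was at 88.7, 12.3 and 51.6 CPM in CD41neg against 8.1 to 9.04 CPM, and likewise lost its call in 5 of 6 (adjusted p up to 0.137). The part of plasma and B cell transcripts in these results was not tested.

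Genes of endothelial cells and of basement membrane were among the 12 with the lowest fold changes. Flt4, the receptor VEGFR3, was at 2.7, 1.07 and 1.73 CPM in CD41pos and 18.8, 15.8 and 15 CPM in CD41neg (log2 -3.17 ± 0.37 SE, adjusted p = 0.00113). Stab2, a scavenger receptor of sinusoidal endothelium, was at 2.48, 6.17 and 2.24 CPM against 29.9, 24.6 and 28.1 CPM (log2 -2.93 ± 0.47 SE, adjusted p = 0.00518). The 3 CD41neg libraries were close to each other for both genes and far above CD41pos. Plvap, a protein of endothelial diaphragms, was at 25.2, 32.4 and 11.5 CPM against 79.3, 79.9 and 119 CPM (log2 -2.01 ± 0.31 SE, adjusted p = 0.00441). Of 13 endothelial markers tested, edgeR called 3 lower and none higher and DESeq2 7 lower and none higher, with a median log2 fold change of -1.94. EdgeR called 6 lower without CD41pos 3. The whole list summed to 240 to 314 CPM in CD41pos and 370 to 428 CPM in CD41neg. Its defining members Cdh5 and Cldn5, chosen after their values were seen, averaged 0.952 and 2.71 CPM in CD41pos against 4.81 and 11.6 CPM in CD41neg and did not pass, and Pecam1 and Tie1 had log2 changes of 0.24 and 0.55. Nid1, a basement membrane protein, was 8.31-fold lower at 1.38 to 1.86 CPM against 11.9 to 14.7 CPM, and lost its call without CD41pos 4 (adjusted p = 0.052). The part of endothelial transcripts in these results was not tested. Stromal markers gave no call among 18 genes in edgeR (1 at an unadjusted p under 0.05) and 1 in DESeq2, with sums from 241 to 427 CPM in CD41pos and 209 to 980 CPM in CD41neg.

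The other genes ranked lowest had varied roles. Atp7b, a copper-transporting ATPase, was at 8.41, 4.63 and 7.6 CPM against 40.9, 28.9 and 55.6 CPM (log2 -2.60 ± 0.42 SE, adjusted p = 0.00531). Rgs4, a regulator of G protein signalling, was at 0.851, 0.999 and 2.1 CPM against 7.19, 16.3 and 8.68 CPM (log2 -3.02 ± 0.46 SE, adjusted p = 0.00366). Abcc9, a subunit of potassium channels, was 7.62-fold lower (adjusted p = 0.00817), with low means per length of 0.0333 TPM in CD41pos and 0.433 TPM in CD41neg. Each of the 3 kept its call whichever WT library was left out. That all CD41pos libraries lay below CD41neg was required by the rule for ranked genes. Ushbp1 (log2 -3.59), Gpm6a, a membrane glycoprotein (-3.38), and the tetraspanin Tspan7 (-2.96) lost their calls in 4, 5 and 6 of these 6 fits, with adjusted p up to 0.0753, 0.0954 and 0.105.

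The remaining genes ranked highest were not all genes of platelets. Robo3, a receptor of the axon guidance family, was at 22.9, 23.4 and 18.7 CPM against 1.17, 1.27 and 1.49 CPM (log2 4.05 ± 0.27 SE, adjusted p = 3.94e-05). Pde10a, a phosphodiesterase of cyclic nucleotides, was 21.7-fold higher at 14.6 to 16.2 CPM against 0.039 to 1.91 CPM (adjusted p = 0.00964). Per length it averaged only 0.5 TPM in CD41pos and 0.0333 TPM in CD41neg. Kcnj5, a G protein-gated potassium channel, was 19.4-fold higher at 14.4 to 21.5 CPM against 0.331 to 1.5 CPM (adjusted p = 0.00213). Neurl1b, a ubiquitin ligase of the Neuralized family, and Proser2 had log2 changes of 3.42 and 3.28. None of the 12 genes ranked highest lost its call when any 1 WT library was left out.

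Of 41 stem cell genes, edgeR called 3 higher and none lower, which is 7.32%, near the 5.59% of all genes tested. DESeq2 called 8 higher and 2 lower. The median log2 fold change in edgeR was 0.12. With edgeR, the higher count was 8 without CD41pos 3 and 1 without CD41neg 4, and 1 gene was lower without CD41neg 3. Among the 3 were Zbtb16, the factor PLZF, and Slamf1, the stem cell antigen CD150. Zbtb16 was at 13.4, 21.6 and 13.6 CPM against 7.23, 6.02 and 3.16 CPM (log2 1.56 ± 0.33 SE, adjusted p = 0.0179), with adjusted p = 0.0533 without CD41neg 4. Slamf1 was at 56.1, 31.4 and 50.6 CPM against 24.5, 28.2 and 21.4 CPM (log2 0.90 ± 0.21 SE, adjusted p = 0.0319). Its CD41pos 3 value lay just above CD41neg 3, and its call was lost in 4 of 6 fits without 1 library (adjusted p up to 0.104). Kit, the stem cell factor receptor, gave 571, 184 and 640 CPM against 791, 558 and 492 CPM and overlapped (log2 -0.40 ± 0.34 SE, adjusted p = 0.539). Among 38 genes linked to ageing or platelet bias of stem cells, 9 were higher and 3 lower, with a median of 0.21. The higher ones include Itga2b, Itgb3, Sdpr, Clu and Vwf, already given, and Fhl1, a LIM-domain protein (log2 1.57 ± 0.25 SE, adjusted p = 0.00508). The count of higher genes was 5 without CD41pos 4 or CD41neg 2, and that of lower genes was 0 without CD41neg 2 or CD41neg 4.

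Cytokine receptors went both ways. Of 38, 3 were higher and 4 lower, with a median log2 fold change of 0.01; without CD41neg 4 the counts were 0 and 2. Il1rl1, the interleukin-33 receptor ST2, was at 14, 7.2 and 17.1 CPM against 53.7, 43.6 and 38.5 CPM (log2 -1.83 ± 0.33 SE, adjusted p = 0.00895). Ifngr1, the interferon gamma receptor chain, was at 189, 141 and 184 CPM against 311, 263 and 333 CPM (log2 -0.82 ± 0.15 SE, adjusted p = 0.00973). Epor, the erythropoietin receptor, was 1.84-fold lower (adjusted p = 0.037) and lost its call in 5 of 6 fits without 1 library (adjusted p up to 0.121). Among 17 SLAM and gate antigens, Slamf6 was lowest (log2 -3.35 ± 0.49 SE, adjusted p = 0.00324), at 0.213 to 0.353 CPM against 1.74 to 4.2 CPM. Of 30 homing and adhesion receptors, edgeR called none and DESeq2 5 (2 higher, 3 lower), with a median log2 fold change of -0.29. In edgeR 11 of the 30 had an unadjusted p under 0.05, against 4199 of all 19395 genes tested.

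Of 104 different cell cycle genes in 3 lists, edgeR called 4 higher and 3 lower (6.73%, against 5.59% of all genes tested). Of 40 mitosis genes, edgeR and DESeq2 called none (3 in edgeR at an unadjusted p under 0.05), with a median log2 fold change of -0.04 and sums of 5493 to 6014 CPM against 5417 to 6362 CPM. Of 40 genes of S phase, 3 were lower: Orc1, Mcm10 and Cdc6, all of replication initiation, with log2 changes of -0.64, -0.59 and -0.53. None of these was called without CD41pos 1, CD41neg 3 or CD41neg 4. Of 24 regulators of G1, edgeR called 4 higher and none lower and DESeq2 6 higher and 3 lower. With edgeR, 2 were lower without CD41pos 3 and 1 without CD41neg 2. Cdkn2d, the CDK inhibitor p19, was at 87.6, 134 and 94.8 CPM against 54.9, 56.9 and 43.8 CPM (log2 1.03 ± 0.17 SE, adjusted p = 0.00638). Ccnd1, cyclin D1, was 2.59-fold higher (adjusted p = 0.0259) but lost its call in 4 of 6 fits without 1 library, and the count of higher G1 genes was 1 without CD41neg 2 or CD41neg 4.

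Of 292 different genes in 7 lists of cell state, edgeR called 5 higher and 3 lower (2.74%, against 5.59% of all genes tested). The lists of glycolysis and ER chaperones among them are given at the end. Of 45 interferon response genes, 1 was higher and 1 lower, with a median log2 fold change of -0.18 and sums of 3351 to 3747 CPM against 3063 to 3647 CPM. The 2 were the membrane protein gene Ifitm3 (log2 0.77) and Oasl1 (-0.94), which lost their calls in 2 and 4 of the 6 fits without 1 library (adjusted p up to 0.0935 and 0.098). Of 11 genes of MHC class II antigen presentation, 2 were higher and 1 was lower (27.3% called). The higher count was 0 without CD41neg 3 and 1 without CD41neg 4 or CD41pos 4. The lower one was Cd74, the invariant chain (log2 -1.38 ± 0.33 SE, adjusted p = 0.0317), which lost its call in 4 of these fits (adjusted p up to 0.112). Of 81 ribosomal protein genes and 78 genes of oxidative phosphorylation, edgeR called none and DESeq2 1 of each, with 1 and 3 at an unadjusted p under 0.05 in edgeR and medians of 0.23 and 0.24. Of 27 immediate early genes edgeR called none (1 at an unadjusted p under 0.05) and DESeq2 1. In these last 3 lists single libraries stood out, as given above for ribosomal and immediate early genes; the oxidative phosphorylation sum was 21941 CPM in CD41pos 3 and 18928 CPM in CD41neg 4, against 13489 to 14349 CPM in the rest.

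The same gates in the libraries labelled RUNX1 KO, with no library in common, gave 541 calls in the same fit (2.79%; 302 higher, 1.56%, and 239 lower, 1.23%). Runx1 itself was higher in these libraries than in WT, as given above, so the values are those of the label, and the deletion is not checked by them. With the label number as a block, which groups those libraries by number, 156 genes were called. Of the 528 genes higher in WT, 503 had a positive log2 fold change in the libraries labelled KO (95.3%) and 192 were called higher there (36.4%). Of the 556 lower in WT, 523 had a negative value (94.1%) and 167 were called lower (30%). Median values were 1.15 in WT against 0.74 in the libraries labelled KO for the higher genes and -0.95 against -0.52 for the lower genes; these genes were chosen by their WT values. Lists varied in how many calls they had in common. The megakaryocyte surface list had 10 higher genes under each label, 9 of them shared, with the gated Itga2b among the 9. The red cell list had 17 lower in WT and 16 under the KO label, 14 of them shared. Granule cargo had 9 and 8 higher genes, with 5 shared. Endothelial markers had 0 higher and 3 lower genes in WT against 1 higher and 0 lower under the KO label. S phase genes had 3 lower in WT and 0 under the KO label. Cytokine receptors had 3 higher and 4 lower against 1 higher and 0 lower, with 0 shared. Adgrg6, an adhesion G protein-coupled receptor, was the only gene called in opposite directions (log2 -1.94 in WT and 3.04 under the KO label), at levels under 3 CPM in every WT library. It was named after its values were seen.

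The test of whether the gate difference itself differed between the libraries labelled WT and those labelled KO called no gene with edgeR (1093 at an unadjusted p under 0.05; DESeq2 called 73). So unequal values were not shown to differ by edgeR. Pf4, for example, had log2 5.33 in WT and 2.69 under the KO label (adjusted p of the difference 0.585), Clu 2.25 and 5.06 (0.452), and Flt4 -3.17 and -0.82 (0.515).

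**Figure D5:**
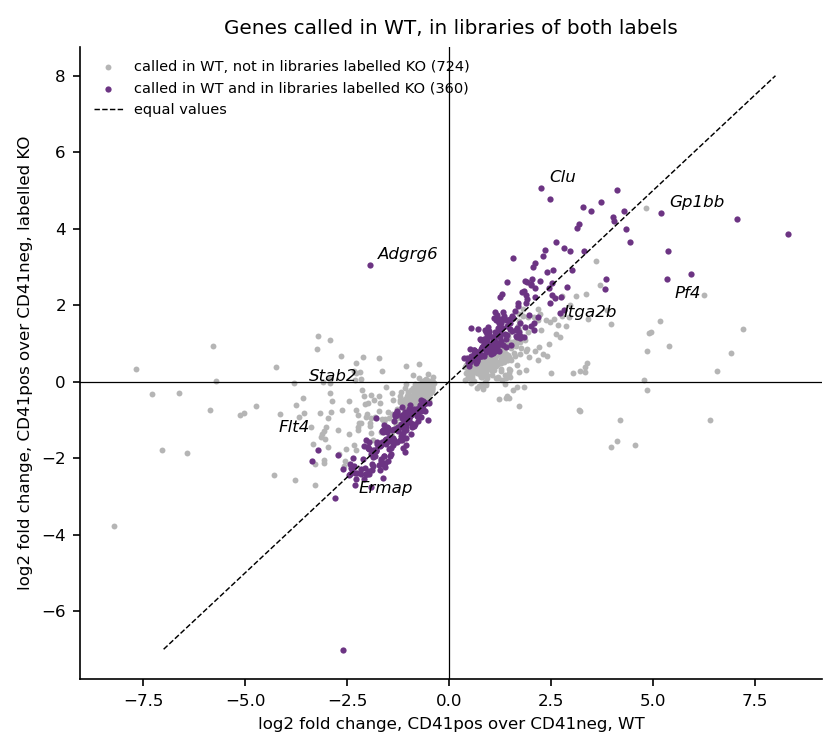
Each point is 1 of the 1084 genes called in WT, with its log2 fold change, CD41pos over CD41neg, in WT (horizontal) and in the libraries labelled RUNX1 KO (vertical), in which Runx1 was above WT; purple points were called there too and the dashed line marks equal values. Most points share their sign, 503 of 528 higher and 523 of 556 lower genes, and Adgrg6 is the only purple point at upper left.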

How the data were processed

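Sorted HSCs gave RNA through a miRNeasy Micro kit and full-length cDNA libraries through SMART-Seq v4, per the labels' protocols. SMART-Seq v4 does not mark the strand, so a gene and one overlapping it cannot be separated. FastQC 0.11.7, cutadapt 1.9.1, STAR 2.6.1e, featureCounts 1.6.2 and mm10 appear in the submitters' processing notes; for their settings and the annotation, the sources used here say nothing. Whole-number counts per gene, unnormalized, were deposited by the authors and served all main tests. TPM values of the same genes, likewise deposited by the authors, served for levels per length and as an alternative. The names of 27 genes had become dates in the counts and were restored from the TPM file.

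Of 35869 genes, 19395 passed edgeR's filterByExpr (edgeR 4.0.16, R 4.3.3). With TMM scaling, the 4 groups were fitted together by quasi-likelihood over 12 libraries and so share their estimate of spread. P-values are two-sided, adjusted by Benjamini-Hochberg over the 19395 genes and called under 0.05. Fold changes are fitted ones, with SE from the F statistic. The code was tested on simulated data. Libraries held 44108035 to 58946457 counts. No 2 libraries of a group were identical or within sampling noise (chi-square over degrees of freedom at least 14.8).

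The comparison, the members and the 33 gene lists (939 entries, 8 without a row, 918 tested) were chosen with earlier results of these data known. Named genes are Itga2b, Runx1 and the 12 highest and 12 lowest fold changes among genes called, with at least 10 CPM in the higher gate and gates that do not overlap. That ranking left out predicted genes, pseudogenes, miRNAs, and mitochondrial and immunoglobulin genes. It left out sex-linked genes only in part, since Tspan7, which was ranked, lies on chromosome X. From each list up to 5 called genes with the smallest adjusted p and the 2 most abundant not called were added. Not all of them are described, some not being reported here, and genes outside the rule are marked in the text. Positions are of GRCm38; promoters are RefSeq's.

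Libraries labelled KO with the same number deviated together from their group means (correlations of 0.434, 0.611 and 0.498 over 10206 genes of at least 10 CPM). Those with different numbers correlated at -0.531 to 0.262 across the gates. Libraries of the same label number also had adjacent library numbers, so a shared animal and a shared place in the library order cannot be told apart. The alternatives comprised DESeq2 1.42.0 as a test, edgeR with DESeq2's size factors, 2 other low-count filters, separate fits by genotype, 2 replicate blocks, an added term marking 4 WT libraries, voom with quality weights, limma-trend (limma 3.58.1) on log2(TPM + 1) and log2(TPM + 0.1), a test against a log2 change of 1, and fits without each library in turn. Fits without the WT libraries numbered 9 and 10, and without the other 4, were added after seeing the data.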

Additional observations from a re-analysis of the deposited data

How the results depend on the processing

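The count of 1084 genes was within 1.5 times of this value under DESeq2's size factors, both low-count filters, the block of adjacent library numbers, the term for 4 WT libraries, voom, both TPM scales and without the WT libraries numbered 9 and 10. It was 2428 with DESeq2, 190 with only the 2 WT groups in the fit, 38 for a minimum log2 change of 1, and 460 to 1187 without 1 library (460 without CD41neg 4, 609 without CD41neg 2). Without the 4 WT libraries numbered up to 6, which leaves 1 WT library a gate whose spread is assumed to be that of the libraries labelled KO, it was 4811. With the replicate block of the animal labels the count was 42. The WT label 4 does not mark a pair from the same animals. Ddx3y was at 22.5 CPM in CD41pos 4 and listed at 0 in CD41neg 4, and Eif2s3y, also Y-linked, at 22.6 and 0.165 CPM. WT libraries with adjacent library numbers were alike in the presence or near absence of Ddx3y. Their deviations correlated at 0.609 (numbers 5 and 6), 0.0893 (9 and 10) and -0.155 (1 and 2). Deviations of libraries labelled 3 correlated at 0.0893 and of those labelled 4 at -0.52, and labels 1 and 2 each occur in a single gate. For label 3 these values cannot decide whether the libraries are a pair. Why calls were lost under the block of the animal labels was not tested. The 541 calls in the libraries labelled KO became 1321 with DESeq2, 1488 with only their groups, 156 with the replicate block, 3858 with voom, 64 for a minimum log2 change of 1 and 199 to 427 without 1 library. The 0 calls of the genotype difference became 73 with DESeq2, 2 with no low-count filter, 1 with the replicate block, 3 with voom, 7 and 26 on log2(TPM + 1) and log2(TPM + 0.1), 3467 without the 4 WT libraries, and 0 to 2 without 1 library. Of 3080 values of 154 named genes, 2593 kept direction and side of the threshold, 423 lost a call, 62 gained one and 2 reversed. These were Itgb1 (log2 -0.69, against 0.01) and Rplp0 (0.36, against -0.05), both without the 4 WT libraries. The causes were not tested. Genes under 1 CPM, those with the fewest counts, were called in 1.11% of cases; the part of depth was not tested.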

Other observations

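The lists not described above are set beside the 5.59% of all genes tested that edgeR called. It called 9.09% of glycolysis genes and 3.57% of ER chaperone genes. Of cell type markers it called 7.14% for T and NK cells, 11.8% for monocytes, macrophages and dendritic cells and 0% for eosinophils. Of 22 glycolysis genes, edgeR called 1 higher and 1 lower and DESeq2 2 and 2. Pgam1, a phosphoglycerate mutase, was at 219, 251 and 200 CPM in CD41pos and 125, 144 and 93.9 CPM in CD41neg (log2 0.89 ± 0.17 SE, adjusted p = 0.0136). Pfkm, the muscle-type phosphofructokinase, was at 110, 87 and 88.4 CPM against 146, 154 and 181 CPM (log2 -0.75 ± 0.13 SE, adjusted p = 0.0071). Neither gene overlapped between the gates, and both kept their calls whichever WT library was left out. Of 28 genes of ER chaperones and the unfolded protein response, edgeR called 1, Calr, calreticulin, and DESeq2 2 higher and 2 lower. Calr was higher (log2 0.41 ± 0.11 SE, adjusted p = 0.0479) in edgeR, a call lost in 4 of 6 fits without 1 library (adjusted p up to 0.131).

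Among 14 markers of T and NK cells, edgeR called 1, Nkg7, and DESeq2 1 higher and 2 lower. EdgeR also called 1 lower without CD41pos 1. The median log2 fold change was -1.44, with 13 of the 14 markers negative and Nkg7 the 1 positive. Nkg7 is a granule membrane protein that also stands among the granulocyte and monocyte genes. It was at 224, 291 and 226 CPM against 118, 109 and 78.3 CPM (log2 1.28 ± 0.23 SE, adjusted p = 0.00947). Among 17 markers of monocytes, macrophages and dendritic cells, Ly6c2 was higher, and Mrc1, the macrophage mannose receptor, was lower (log2 -2.89 ± 0.73 SE, adjusted p = 0.0403). Mrc1 lost its call without any 1 of the 6 libraries (adjusted p up to 0.102), and Ly6c2 without CD41neg 4 (adjusted p = 0.0545). Of 8 eosinophil markers neither edgeR nor DESeq2 called any, with 0 at an unadjusted p under 0.05 in edgeR. Their sums were 186 to 287 CPM in CD41pos and 51.3 to 698 CPM in CD41neg.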
